A study of Homo sapiens with 5 samples.

Results

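This account covers 10 genes of the ATF4 and CHOP branch of the stress response in MDA-MB-231 cells, namely ATF4, DDIT3 (which encodes CHOP), TRIB3, ASNS, CHAC1, PPP1R15A, SESN2, DDIT4, CEBPB and ATF5. They were taken by symbol, as all probe sets that the platform annotation maps to those symbols alone. This gave 17 of the 54613 probe sets that are not array controls, and all 17 entered the tests with no filter on level. ATF4, DDIT3, CHAC1, DDIT4 and CEBPB had 1 probe set each, TRIB3, ASNS, PPP1R15A and SESN2 had 2 and ATF5 had 4. The series asked which genes respond when these breast cancer cells meet SAHA, a hydroxamate inhibitor of histone deacetylases. Total RNA of 3 samples given the vehicle DMSO and 2 given 2 uM SAHA was measured on 5 single-colour arrays after 30 h. Both groups were the same cell line in the same medium and differed by the agent in the labels. The extraction text shared by all samples also dates the lysis from a transfection that no other label describes, so whether the cells were transfected is unclear, and the exposure time is the one in the treatment text. Whether the replicates were separate cultures is not stated, so each p-value rests on array-to-array spread that could be purely technical.

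Stress of several kinds converges on this branch. Separate kinases, activated by misfolded protein, amino acid shortage, double-stranded RNA or haem shortage, phosphorylate the initiation factor eIF2, which slows general translation while the mRNA of the transcription factor ATF4 is translated more. ATF4 pairs with C/EBP proteins and raises genes of amino acid supply together with DDIT3 and TRIB3, and the phosphatase subunit encoded by PPP1R15A then reverses the phosphorylation. ATF4 is controlled to a large extent in translation, so the mRNA levels measured here are not a readout of ATF4 protein.

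The cells carried high signal for VIM, CD44, AXL and CAV1, markers of the mesenchymal state of this line, each at percentile 98.2 or higher of the probe sets on every array. The luminal markers did not lie together, with KRT18 at percentiles 99.2 to 99.5, GATA3 at 82.0 to 84.8, ESR1 at 58.1 to 59.6 and PGR at 16.3 to 18.2. Of the markers of other cell types, leukocyte PTPRC lay at 6.05 to 9.99, hepatocyte ALB at 13.6 to 18.5 and endothelial PECAM1 at 65.0 to 68.2 (brightest probe set of each gene). Without detection calls these percentiles do not show which of the dimmer markers were expressed. Median intensity per array ran from 88.8 to 91.2. The actin control probe sets, which compare the ends of the transcript, put DMSO 1 apart from the rest, with a log2 difference of 3.29 against 2.04 to 2.22 on the other 4 arrays. Spiked poly-A control RNAs were also higher on the SAHA arrays, with a median log2 difference of 0.39 (range 0.17 to 0.66 over 24 probe sets). The part of either in the results was not tested, but for the 10 genes, folds without DMSO 1 and folds centred on the poly-A controls are given below where a call or a sign changed.

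ATF4 acts on its targets through a composite element that carries a C/EBP half-site beside an ATF half-site. The 250 bases before each annotated start of the 10 genes (18 windows, RefSeq, build GRCh38.p14) were searched on both strands for its core, TGATGNAA, and for the cyclic AMP element TGACGTCA. These 3 upstream windows are shown because they are the ones with a match. Capitals mark the matched bases, each sequence is read 5′ to 3′ on the strand of the gene, and the last base lies just before the annotated start.
ASNS: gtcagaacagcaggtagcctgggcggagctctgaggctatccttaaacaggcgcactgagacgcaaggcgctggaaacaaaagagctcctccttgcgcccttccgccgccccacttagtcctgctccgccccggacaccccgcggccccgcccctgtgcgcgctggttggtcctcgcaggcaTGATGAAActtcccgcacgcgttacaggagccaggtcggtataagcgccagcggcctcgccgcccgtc
CHAC1: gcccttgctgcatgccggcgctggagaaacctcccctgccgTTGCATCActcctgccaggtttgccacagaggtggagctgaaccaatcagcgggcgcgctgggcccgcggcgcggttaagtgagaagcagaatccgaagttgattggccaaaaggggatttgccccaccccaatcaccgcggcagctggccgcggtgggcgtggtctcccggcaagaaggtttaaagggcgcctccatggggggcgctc
PPP1R15A: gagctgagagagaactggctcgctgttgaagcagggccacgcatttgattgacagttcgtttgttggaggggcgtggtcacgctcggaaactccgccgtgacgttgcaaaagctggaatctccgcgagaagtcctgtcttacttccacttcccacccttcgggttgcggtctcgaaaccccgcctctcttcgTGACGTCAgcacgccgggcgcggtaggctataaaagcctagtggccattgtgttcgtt
The ASNS window lies at chr7:97872409-97872658 on the minus strand, the CHAC1 window at chr15:40953221-40953470 on the plus strand and the PPP1R15A window at chr19:48872171-48872420 on the plus strand. In ASNS the match to TGATGNAA lies 68 to 61 bases before the start, and in CHAC1 it lies 209 to 202 bases before the start on the opposite strand, where it reads TTGCATCA on the gene's own strand. PPP1R15A carries TGACGTCA 58 to 51 bases before its start. Among all 35116 upstream windows of this length, 3.14% held TGATGNAA and 1.65% held TGACGTCA. These matches are letters in a window and not measured sites. The windows of the other 7 genes held neither string, which says nothing about more distant elements.

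After SAHA, 7 of the 10 genes were lower on 1 probe set and none was higher. Of the 17 probe sets, 7 were lower and 0 higher at an adjusted p under 0.05 (limma, Benjamini-Hochberg over all probe sets), each of the 7 from a different gene, against a background of 9.05% of all 54613 probe sets called lower and 9.01% called higher. At an unadjusted p under 0.05, 10 were lower and 0 higher. The 7 genes were ATF5, TRIB3, DDIT3, ATF4, DDIT4, ASNS and SESN2. CHAC1, PPP1R15A and CEBPB had no probe set that passed. The count of lower probe sets was 9 when quantile normalization was run again, when arrays were centred on the median probe set or on ribosomal protein genes, and without dim probe sets, and the 2 gained were 202014_at of PPP1R15A and 204999_s_at of ATF5. In RNA from whole cultures, fewer cells with a transcript and less of it per cell cannot be told apart. The median log2 fold was -0.47 over the 17 probe sets and -0.03 over all 54613. Both SAHA arrays lay below all DMSO arrays for 13 of the 17 probe sets, an arrangement seen for 21% of all probe sets, and above them for 1, against 18.2%. Without DMSO 2 the called count fell to 3, while the count over all 54613 probe sets fell from 4942 to 2571. That fit has fewer degrees of freedom, and the ATF4 fold was -0.88 there, against -0.89 with all arrays. With arrays centred on the poly-A controls the called count was 16, where 40982 of all 54613 probe sets were called lower. A pass under that centring was therefore common to most of the array.

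**Figure D1:**
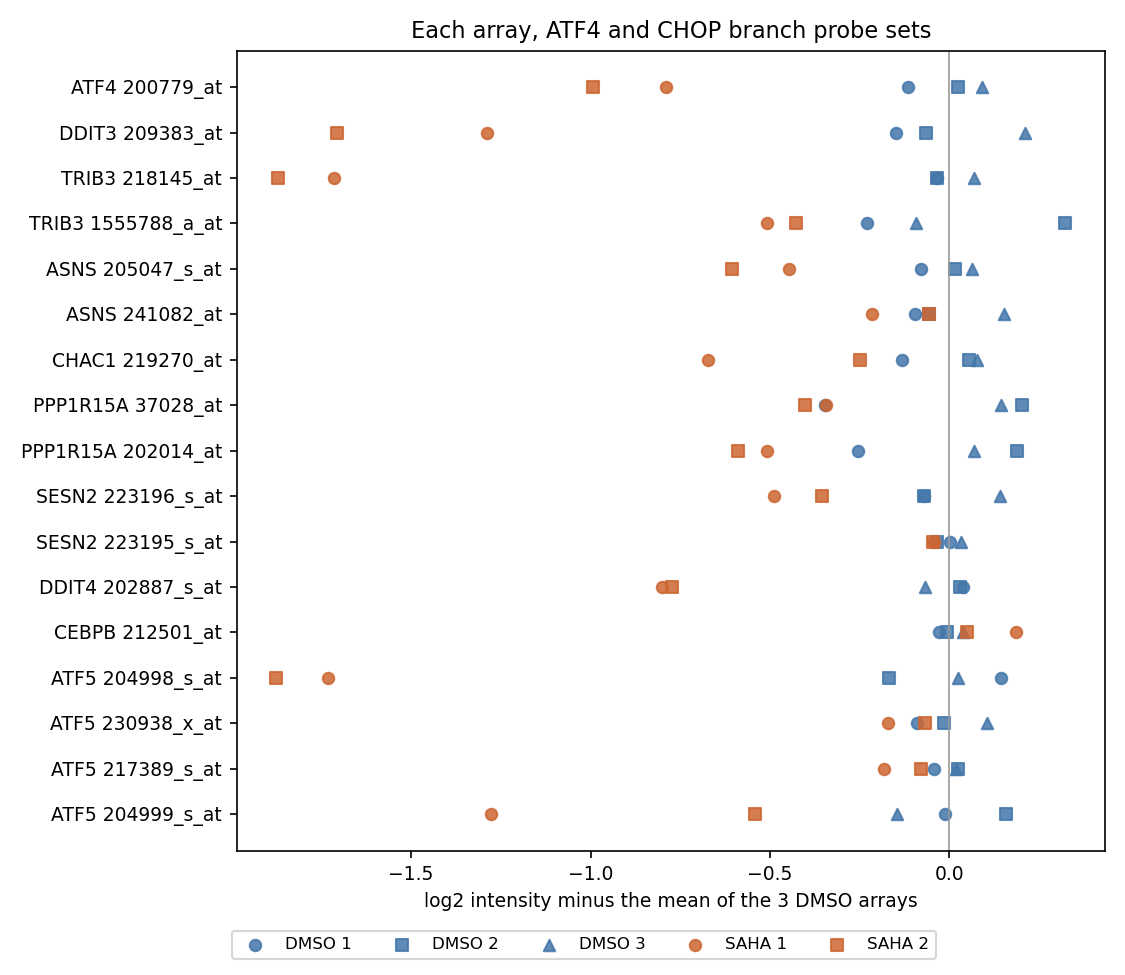
Log2 intensity of each array minus the mean of the 3 DMSO arrays (horizontal axis) for the 17 probe sets (vertical axis), with blue for DMSO, orange for SAHA and marker shape for the replicate number. Both SAHA arrays lie left of every DMSO array for 13 probe sets, and only CEBPB has both on the right.

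ATF4, the transcription factor that heads the branch, fell 1.86-fold. Its only probe set, 200779_at, read 12.27, 12.41 and 12.48 as log2 intensity on DMSO 1, 2 and 3 and 11.59 and 11.39 on SAHA 1 and 2. The SAHA arrays were thus both below the lowest DMSO array, and the distance between the groups exceeded the range within either. Its log2 change was -0.89 ± 0.10 (SE; limma adjusted p = 0.00765), from a mean of 12.38 ± 0.11 (SD, n = 3) to 11.49 ± 0.14 (SD, n = 2). With each array left out in turn the fold stayed between -0.99 and -0.79, but the call ended without DMSO 2 (limma adjusted p = 0.052) and without SAHA 2 (0.0501).

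DDIT3 encodes CHOP, a C/EBP-family factor that ATF4 induces and that links prolonged stress to cell death. Probe set 209383_at read 10.54, 10.63 and 10.90 in DMSO, against 9.40 and 8.98 in SAHA. The SAHA arrays differed from each other by more than any other called probe set of the branch, and both remained more than 1 log2 unit below the lowest DMSO array. The transcript fell 2.82-fold (log2 fold -1.50 ± 0.18, SE; limma adjusted p = 0.00958; 95% interval -1.97 to -1.02). Without DMSO 2 the adjusted p was 0.0569 and without SAHA 2 it was 0.0553, with folds of -1.53 and -1.29.

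TRIB3, a pseudokinase that ATF4 and CHOP induce and that in turn restrains ATF4, had one of the lowest folds of the branch. Probe set 218145_at read 10.72, 10.72 and 10.82 in DMSO, against 9.04 and 8.88 in SAHA, which is a fall of 3.47-fold (log2 fold -1.79 ± 0.07, SE; limma adjusted p = 0.00154). This call was kept with any single array left out (adjusted p = 0.0161 to 0.0274). The other probe set, 1555788_a_at, read 6.25, 6.80 and 6.38 in DMSO, against 5.97 and 6.05 in SAHA. Its SAHA arrays were also below all DMSO arrays, but the DMSO arrays were spread over more than the distance to them, and the fold of -0.47 ± 0.18 (SE) did not pass (limma adjusted p = 0.189), though it was -0.84 and passed with arrays centred on the poly-A controls (adjusted p = 1.08e-05). The gap between the TRIB3 probe sets was tested itself. It was known from these same arrays beforehand, so its p-value is not independent support. The difference of log2 folds was 1.33 ± 0.18 (SE; limma adjusted p = 0.00268; 95% interval 0.91 to 1.75). It was 1.21 without SAHA 2, where the call ended (adjusted p = 0.0548). With both probe sets averaged TRIB3 gave -1.13.

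ATF5 is the closest relative of ATF4 and is likewise translated under eIF2 phosphorylation, and its probe sets disagreed more widely. Probe set 204998_s_at read 9.36, 9.05 and 9.24 in DMSO, against 7.49 and 7.34 in SAHA, a fall of 3.49-fold (log2 fold -1.80 ± 0.11, SE; limma adjusted p = 0.00256), called with any single array left out. Probe set 204999_s_at read 7.06, 7.23 and 6.92 in DMSO, against 5.79 and 6.53 in SAHA. Both SAHA arrays were lower there too, but they lay 0.73 apart, and the fold of -0.91 ± 0.25 (SE) did not pass (limma adjusted p = 0.0815), though it did without SAHA 2 (-1.28, adjusted p = 0.0437). It also passed with folds of -0.95 to -0.90 under the 4 settings that gave 9 lower probe sets (adjusted p = 0.0218 to 0.0421) and at -1.28 centred on the poly-A controls (7.76e-08). The remaining probe sets barely differed. Probe set 217389_s_at read 7.01, 7.07 and 7.07 in DMSO, against 6.87 and 6.97 in SAHA (log2 fold -0.13 ± 0.05, SE; limma adjusted p = 0.182). Probe set 230938_x_at read 7.70, 7.78 and 7.90 in DMSO, against 7.62 and 7.73 in SAHA, where the groups overlapped (-0.12 ± 0.08, SE; adjusted p = 0.373). Centred on the poly-A controls these 2 were -0.50 and -0.49 and passed (limma adjusted p = 0.00123 and 0.00139).

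The ATF5 disagreement also passed its own test. Against 204998_s_at, the log2 fold of 230938_x_at was 1.68 ± 0.15 (SE) less negative and that of 217389_s_at 1.67 ± 0.14 (SE) less negative (limma adjusted p = 0.000432 and 0.000391), and both calls were kept with any single array left out. For 204999_s_at the difference was 0.89 ± 0.26 (SE; adjusted p = 0.0502), and it passed without dim probe sets (0.0472) and with a mean-variance trend (0.0483). Of the 7 within-gene differences of the branch, 3 were called, against 18.5% of the 21316 such differences on the array. These 3 came from TRIB3 and ATF5 alone. The called ATF5 differences share the reference 204998_s_at, so they are not independent. The TRIB3 gap was known from these arrays before the test. Averaging the 4 ATF5 probe sets gave -0.74, against -1.80 for the brightest. The brightest was chosen by its mean over all arrays and held that place only through DMSO. Probe set 204998_s_at averaged 9.22 in DMSO and 7.41 in SAHA, against 7.79 and 7.67 for 230938_x_at. The fold of -1.80 thus depends on how the probe set was chosen. Names ending in _s_at, _x_at or _a_at mark probe sets that can match several transcripts, and which ATF5 or TRIB3 transcripts each one reads was not analysed here.

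**Figure D2:**
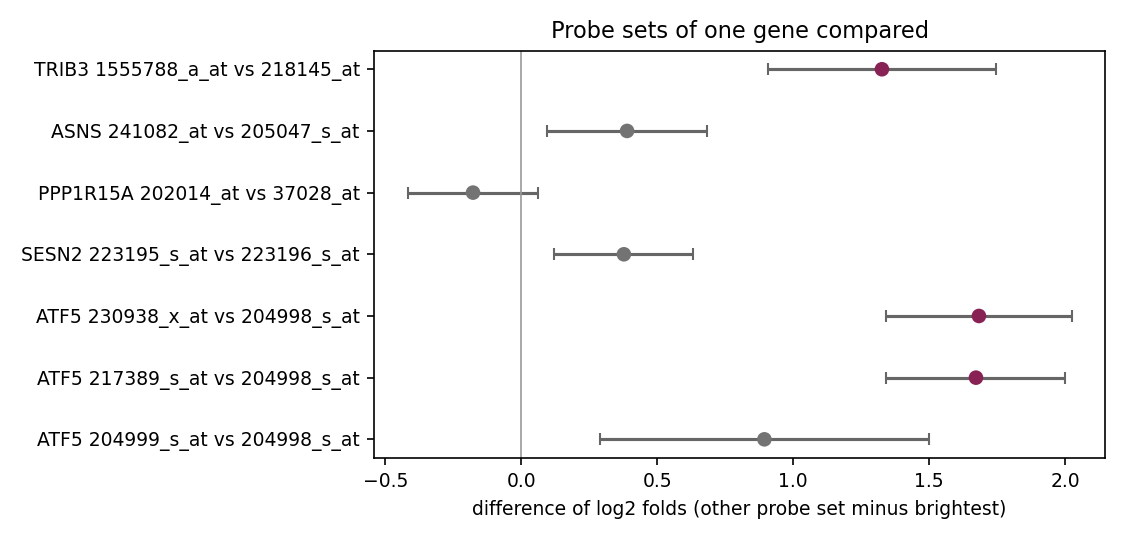
Difference of log2 folds between each further probe set and the brightest probe set of the same gene (horizontal axis, with 95% intervals) for the 7 pairs in the branch (vertical axis), in purple where the limma adjusted p is under 0.05. The TRIB3 pair at 1.33 and the ATF5 pairs at 1.68 and 1.67 are the called ones, and the PPP1R15A pair at -0.18 has an interval that spans 0.

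ASNS, asparagine synthetase, is the classic amino acid response target of ATF4. Probe set 205047_s_at read 11.34, 11.43 and 11.48 in DMSO, against 10.97 and 10.81 in SAHA. The groups did not overlap, and the transcript fell 1.44-fold (log2 fold -0.53 ± 0.07, SE; limma adjusted p = 0.0143). The call was kept only without DMSO 1 among the single arrays left out (adjusted p = 0.0417 there, and 0.0525 to 0.0762 without DMSO 2, DMSO 3, SAHA 1 or SAHA 2). The other probe set, 241082_at, was among the dimmest of the array, at 3.10, 3.14 and 3.35 in DMSO, against 2.98 and 3.14 in SAHA, with overlapping groups (-0.14 ± 0.10, SE; adjusted p = 0.432). With arrays centred on the poly-A controls its fold was -0.51 and passed (limma adjusted p = 0.00118). The difference between the 2 folds, 0.39 ± 0.13 (SE), did not pass (limma adjusted p = 0.0726), and the average of both was -0.33.

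DDIT4 and SESN2 encode brakes on the growth kinase complex TORC1, DDIT4 (REDD1) through the TSC complex and SESN2 through the amino acid sensing GATOR complexes. DDIT4 read 12.75, 12.74 and 12.64 in DMSO, against 11.91 and 11.94 in SAHA on 202887_s_at, and the groups did not overlap. It fell 1.72-fold (log2 fold -0.79 ± 0.05, SE; limma adjusted p = 0.0026), and was called with any single array left out (-0.82 to -0.77). SESN2 read 8.23, 8.23 and 8.44 in DMSO, against 7.81 and 7.94 in SAHA on 223196_s_at. The fall of 1.34-fold passed narrowly (log2 fold -0.42 ± 0.09, SE; limma adjusted p = 0.0458) and lost its call with each of the 5 arrays left out in turn (0.0789 to 0.211). The other SESN2 probe set, 223195_s_at, read 7.92, 7.88 and 7.95 in DMSO, against 7.87 on both SAHA arrays (-0.04 ± 0.04, SE; adjusted p = 0.494), which became -0.42 and passed with arrays centred on the poly-A controls (0.00503). The difference between the SESN2 folds was 0.38 ± 0.11 (SE; limma adjusted p = 0.0507), and their average was -0.23.

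PPP1R15A (GADD34), which directs protein phosphatase 1 to eIF2, gave lower means that did not pass. Probe set 37028_at read 9.02, 9.57 and 9.51 in DMSO, against 9.02 and 8.97 in SAHA, so that DMSO 1 lay within the range of the SAHA arrays (-0.37 ± 0.19, SE; limma adjusted p = 0.303). Probe set 202014_at read 8.37, 8.82 and 8.70 in DMSO, against 8.12 and 8.04 in SAHA, where the groups did not overlap (-0.55 ± 0.15, SE; adjusted p = 0.0786). DMSO 1 was the lowest DMSO array in both, as it was for ATF4, DDIT3 and CHAC1 but not for DDIT4. It is the array that stood apart in the actin controls, and whether this bears on PPP1R15A was not tested. Without DMSO 1 the folds were -0.55 and -0.68 and both passed (limma adjusted p = 0.0235 and 0.0287). Probe set 202014_at also passed with folds of -0.59 to -0.55 under the 4 settings that gave 9 lower probe sets (adjusted p = 0.0211 to 0.0466). Centred on the poly-A controls, the folds of 37028_at and 202014_at were -0.74 and -0.92 and both passed (limma adjusted p = 3.70e-05 and 9.19e-07). The 2 probe sets did not differ beyond their error (-0.18 ± 0.10, SE; adjusted p = 0.302; 95% interval -0.42 to 0.06).

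CHAC1, which breaks down glutathione and is induced by ATF4 and CHOP, read 7.15, 7.33 and 7.35 in DMSO, against 6.61 and 7.03 in SAHA on 219270_at. The SAHA arrays were both lower but lay 0.42 apart, and the fold of -0.46 ± 0.15 (SE) did not pass (limma adjusted p = 0.13). It was -0.67 without SAHA 2 and -0.25 without SAHA 1, with no call in either, and -0.83 with a call when arrays were centred on the poly-A controls (adjusted p = 6.05e-06). CEBPB, a C/EBP partner of ATF4, was the one gene with both SAHA arrays above DMSO, at 12.16, 12.19 and 12.23 in DMSO, against 12.38 and 12.24 in SAHA on 212501_at. The distance from the highest DMSO array to SAHA 2 was small against the spread, and the fold of 0.12 ± 0.06 (SE) did not pass (limma adjusted p = 0.279; 95% interval -0.03 to 0.27). Centred on the poly-A controls it was -0.25 (adjusted p = 0.0633).

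By size of log2 fold on the brightest probe set, the order was ATF5 (-1.80), TRIB3 (-1.79), DDIT3 (-1.50), ATF4 (-0.89), DDIT4 (-0.79), ASNS (-0.53), CHAC1 (-0.46), SESN2 (-0.42), PPP1R15A (-0.37) and CEBPB (0.12). The 95% intervals of ATF5, TRIB3 and DDIT3 overlapped, and so did those of ATF4 and DDIT4. That of ASNS (-0.72 to -0.33) overlapped those of ATF4, DDIT4, CHAC1, SESN2 and PPP1R15A. The interval of PPP1R15A (-0.88 to 0.14) overlapped that of CEBPB (-0.03 to 0.27). Overlap of intervals does not settle whether neighbours in this list differ, and the order itself was not tested. The intervals of TRIB3 (-1.98 to -1.61) and ATF5 (-2.10 to -1.50) lay below that of ATF4 (-1.15 to -0.64). The interval of DDIT3 (-1.97 to -1.02) overlapped that of ATF4. All of these belong to the brightest probe set. With probe sets averaged, the folds of ATF5 and TRIB3 were -0.74 and -1.13, against -0.89 for ATF4.

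**Figure D3:**
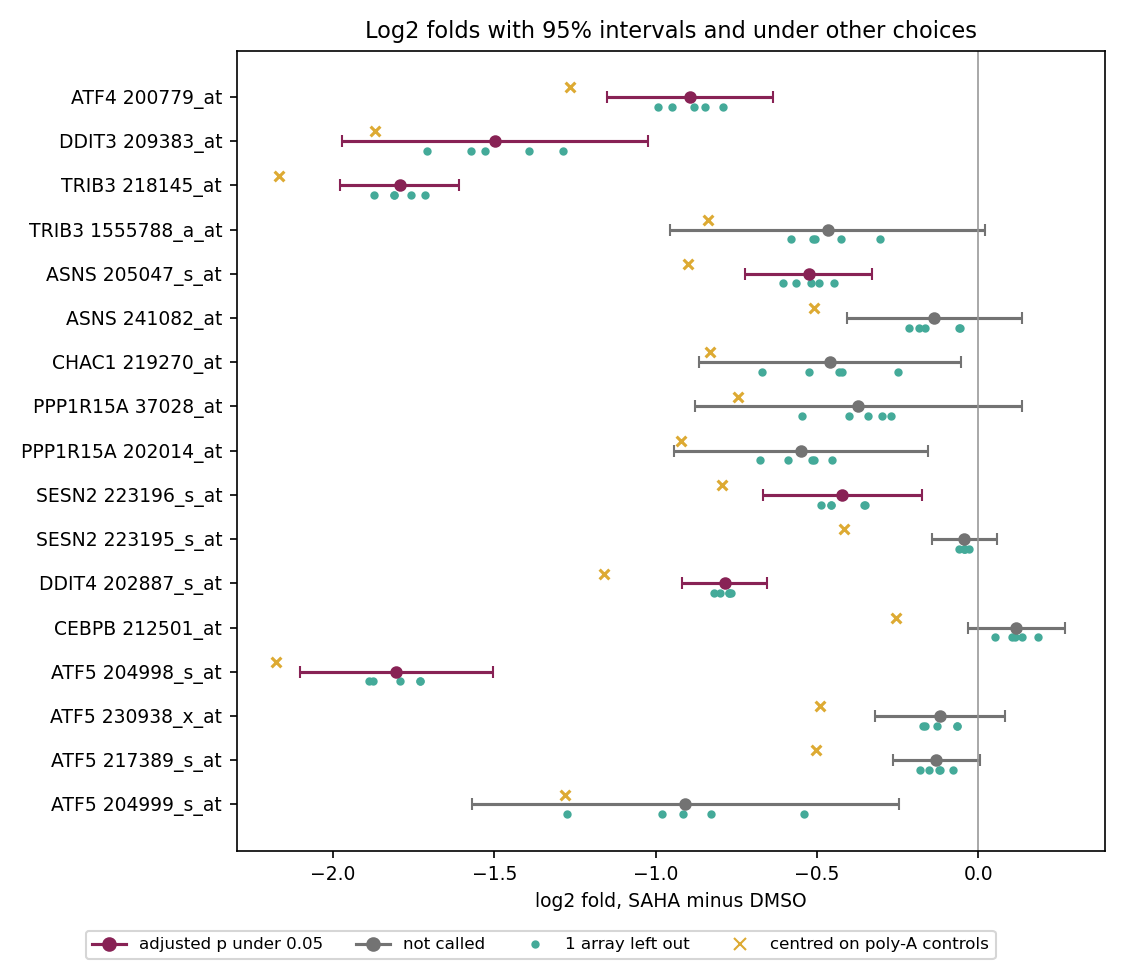
Log2 fold of SAHA against DMSO (horizontal axis) for each of the 17 probe sets (vertical axis) with its 95% limma interval, purple where called, small green points for the 5 fits with 1 array left out and yellow crosses for arrays centred on the poly-A controls. The ATF5, TRIB3 and DDIT4 probe sets at -1.80, -1.79 and -0.79 keep a narrow range of green points, while the crosses lie further left for all 17 and put CEBPB at -0.25.

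The genes with arrays most like ATF4, by Euclidean distance over the 5 log2 values after removing each gene's mean, were CAD (0.0674), an enzyme of pyrimidine synthesis, PLAU (0.0701), the urokinase protease, and RIOK2 (0.0788), a kinase of ribosome maturation. Their log2 folds were -0.86, -0.87 and -0.84. The nearest to DDIT3 were CCDC22 (0.198), TOR1A (0.207) and SFMBT1 (0.209). Distances over 5 arrays of 2 groups mostly reflect folds of equal size.

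The machinery above ATF4 was counted on the brightest probe set of each gene. Of 19 genes for eIF2 kinases, eIF2, its exchange factor eIF2B and phosphatase subunits, 4 were lower (21.1%) and 2 higher (10.5%), with a median log2 fold of -0.05, against 13.5% of 19775 genes called lower, 12% called higher and a median of -0.03. The exchange factor subunit EIF2B1 (-0.54 ± 0.05, SE), the eIF2 beta subunit EIF2S2 (-0.53 ± 0.06, SE) and the phosphatase catalytic subunit PPP1CA (-0.52 ± 0.12, SE) fell. PPP1R15B, the constitutive counterpart of PPP1R15A, rose by 0.64 ± 0.08 (SE; limma adjusted p = 0.011), reading 10.10, 10.16 and 10.09 in DMSO, against 10.87 and 10.64 in SAHA, while PPP1R15A did not pass. Centred on the poly-A controls the PPP1R15B fold was 0.26 and its call ended (adjusted p = 0.0609). Of these, PPP1CA was called in 1 of the 5 fits with an array left out, PPP1R15B in 2, EIF2S2 in 3 and EIF2B1 in 4. None of the 4 kinases was called on its brightest probe set, though only 2 of the 3 EIF2AK2 probe sets were uncalled. The nearest to the threshold were EIF2AK4 (GCN2, 0.29; limma adjusted p = 0.0517) and EIF2AK3 (PERK, 0.50; 0.0538). The lower count was 2 without DMSO 3 and 1 without SAHA 1 or SAHA 2, and the higher count was 0 without DMSO 1, DMSO 2 or DMSO 3 and 4 with probe sets averaged.

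Of 21 other stress-responsive targets of ATF4 or CHOP, 5 fell (23.8%) and 6 rose (28.6%), with a median log2 fold of -0.04. Over all genes 13.5% were lower and 12% higher, with a median of -0.03. With the probe sets of each gene averaged, 7 of the targets were lower and 5 higher. VLDLR, a lipoprotein receptor, rose by 1.67 ± 0.07 (SE), NDRG1 by 1.26 ± 0.06 (SE) and the histone demethylase KDM7A by 0.99 ± 0.06 (SE), all called with any single array left out (limma adjusted p = 0.00173, 0.00173 and 0.00277 with all arrays). CEBPG, a C/EBP partner of ATF4, fell by 1.11 on the log2 scale (9.52, 9.67 and 9.77 in DMSO, 8.54 and 8.55 in SAHA; limma adjusted p = 0.00368), though its call ended without SAHA 1 (0.050004). Leaving out DMSO 2 or SAHA 1 gave 2 lower genes and leaving out DMSO 3 or SAHA 2 gave 3, while 4 were higher without DMSO 2, DMSO 3 or SAHA 1.

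Of 27 amino acid supply genes that ATF4 is known to raise, 5 fell (18.5%) and 3 rose (11.1%), with a median log2 fold of -0.12. These shares are near those over all genes (13.5% lower and 12% higher). The mitochondrial folate enzymes MTHFD2 (-1.32 ± 0.11, SE) and SHMT2 (-1.01 ± 0.07, SE) fell, and the amino acid transporter SLC7A5 (1.03 ± 0.05, SE) rose, all called with any single array left out. MTHFD2 was lower on 1 of its 2 probe sets. PSPH, the last enzyme of serine synthesis, was called higher on its brightest probe set (1.07 ± 0.17, SE), 1 of 3 probe sets, but gave 0.09 with its probe sets averaged and was called in 1 of the 5 fits with an array left out. The lower count was 3 without DMSO 3.

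Of 16 genes listed as paralogues of the branch genes, 3 fell (18.8%) and 5 rose (31.2%), with a median log2 fold of 0.15. Over all genes 13.5% were lower and 12% higher. The list is broad and takes in more distant ATF factors, among them ATF3, called higher, and ATF7, called lower. SESN3 rose by 1.35 ± 0.19 (SE; limma adjusted p = 0.0154; 7.87, 7.66 and 7.45 in DMSO, 9.24 and 8.78 in SAHA). Of its 7 probe sets 4 were called higher, with an average of 0.54. SESN2 was called lower on 1 of its 2 probe sets, and only narrowly (limma adjusted p = 0.0458). TRIB1 rose by 0.84 ± 0.15 (SE; limma adjusted p = 0.0297) on 1 of 3 probe sets while TRIB3 fell, but its probe sets averaged 0.14 (adjusted p = 0.0896). CEBPG and PPP1R15B, given above, are members too. SESN3 was called in 2 and TRIB1 in 1 of the 5 fits with an array left out. The higher count was 3 without DMSO 1, 0 without DMSO 2 or DMSO 3, 1 without SAHA 1 and 2 without SAHA 2. The lower count was 1 without SAHA 1.

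Among 26 regulators of TORC1 that act with SESN2 and DDIT4, 5 fell and 5 rose (19.2% each), with a median log2 fold of -0.07, against 13.5% lower and 12% higher over all genes. DEPTOR, an inhibitor bound to the kinase, rose 3.53-fold on its brighter probe set (log2 fold 1.82 ± 0.07, SE; limma adjusted p = 0.00149; 5.40, 5.29 and 5.39 in DMSO, 7.25 and 7.10 in SAHA), kept its call with any single array left out and gave 0.80 with both probe sets averaged. TBC1D7 of the TSC complex rose by 0.85 ± 0.10 (SE), and 0.44 with its probe sets averaged. MLST8, a subunit of the kinase complex, and the small GTPase RRAGB fell, with log2 folds of -0.84 ± 0.14 (SE) and -0.60 ± 0.08 (SE). MLST8 was called in 1, TBC1D7 in 2 and RRAGB in 3 of the 5 fits with an array left out. The lower count was 3 without DMSO 1, 2 without DMSO 2, 1 without DMSO 3 or SAHA 2 and 0 without SAHA 1, and the higher count was 3 without DMSO 3 and 2 without SAHA 1 or SAHA 2. Centring on the poly-A controls put the median of all probe sets at -0.40 and called 40982 of all 54613 lower. It left 2 of these regulators higher and 19 lower. The same centring gave 0 higher and 13 lower among the eIF2 genes, 4 and 12 among the stress-responsive targets, 2 and 22 among the amino acid genes and 2 and 8 among the paralogues.

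**Figure D4:**
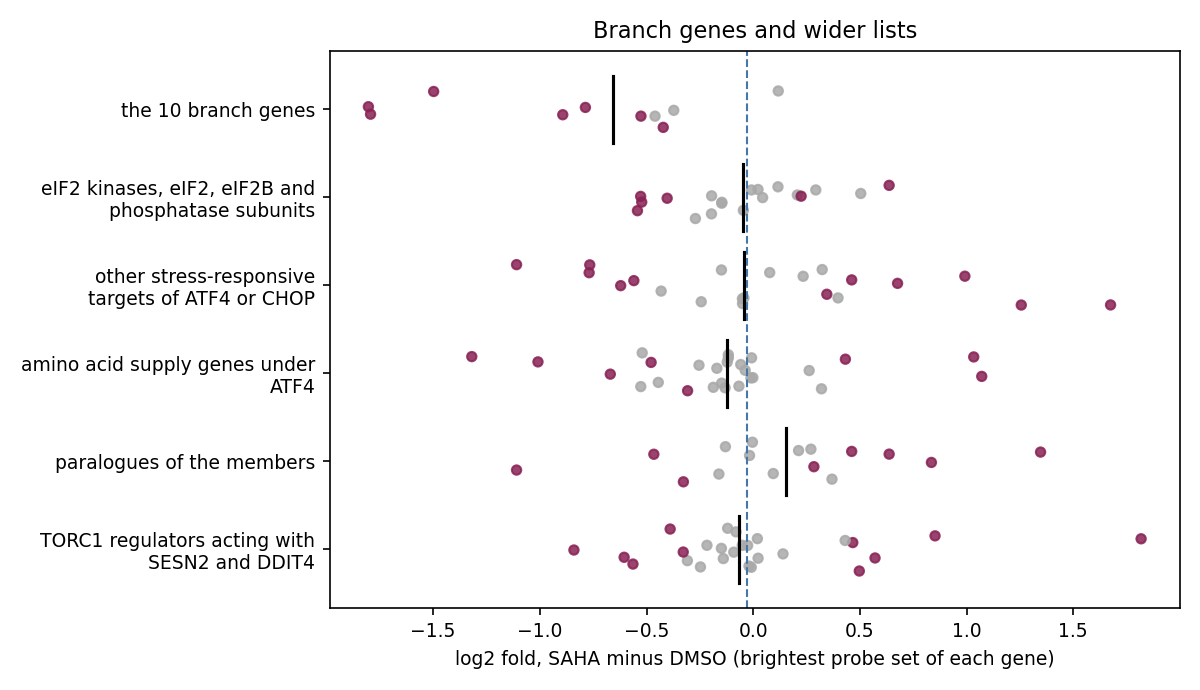
Log2 fold of SAHA against DMSO on the brightest probe set of each gene (horizontal axis) for the 10 branch genes and the 5 wider lists (vertical axis), purple where the limma adjusted p is under 0.05, with black bars for list medians and a dashed line for the median of all genes at -0.03. The branch genes have a median of -0.66 and 7 called genes, all lower. Each wider list has called genes on both sides, as do all genes (13.5% lower and 12% higher). Members and lists were chosen with earlier results of these data known.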

How the data were processed

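The deposited values are RMA probe set intensities on a linear scale (4.56 to 38935 over 54675 probe sets), made in R 2.12 per the submitters' processing notes. RMA gives all arrays the same distribution, so a change common to most transcripts would not be seen, and without detection calls the signal of a probe set cannot be set against its background. The genome build is not given in the sources used here.

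Log2 was taken, 62 control probe sets were left out, and the other 54613 were fitted with limma 3.58.1 in R 4.3.3 (lmFit and eBayes, no covariates, two-sided, Benjamini-Hochberg adjustment over all 54613, threshold 0.05). The fit had 3 residual and 1.39 prior degrees of freedom, so the number of arrays limits the precision. Symbols came from the platform annotation of the probe sets (41091 with 1 gene), updated through gene identifiers for 41037. Wider lists used the probe set with the highest mean for each of 19775 genes. That mean runs over 3 DMSO and 2 SAHA arrays, so a probe set that is high in DMSO can be favoured. Of 110 listed genes, 106 were measured, and the others were not analysed here. Differences between probe sets of a gene were fitted over 21316 pairs. Both fits were checked on simulated data. The text names every probe set of the 10 genes, up to 4 called genes of each list with the largest absolute fold and the 3 genes nearest to ATF4 and to DDIT3. The eIF2 kinases EIF2AK3 and EIF2AK4 were added after their values were seen. Members, lists and tests were chosen with earlier results of these data known.

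Alternatives covered scaling, dim probe sets (below the 40th percentile), the unit tested, array weights, the variance model, leaving out each array, a replicate block and a threshold of 0.01. Figures were drawn with matplotlib 3.10.9.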

Additional observations from a re-analysis of the deposited data

How the results depend on the processing

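Signs of all 17 folds were kept under every alternative run, except CEBPB, which was -0.25 centred on the poly-A controls. That centring moved the median of all probe sets to -0.40. It called 16 branch probe sets lower, as it did 40982 of all 54613 probe sets. In the wider lists it called 73 genes lower and 10 higher (21 and 19 otherwise). Of all called probe sets 6.45% were then higher, against 49.9%. The unmoderated test per probe set called 3 branch probe sets, 8 wider genes lower, 8 higher and 0 within-gene differences. At 0.01, 9 wider genes were lower and 9 higher. Within-gene differences called were 5 without dim probe sets and 5 with a mean-variance trend, against 3. With 1 array left out, branch probe sets called lower were 3 to 8, wider genes called lower 8 to 17 and higher 9 to 16, and within-gene differences called 2 to 4. These fits have fewer degrees of freedom. A lone SAHA array is assumed to vary like the DMSO arrays. Replicate numbers 1 and 2 are shared by both groups, but nothing in the labels pairs them, and deviations of same-numbered arrays correlated at 0.0912 and -0.0445. With the replicate number as a block, which leaves 1 residual degree of freedom, 0 branch probe sets, 0 wider genes in either direction and 0 of all 54613 probe sets were called, with branch folds of -1.79 for ATF5 and -0.85 for ATF4. Signal over background, which would bound the dim probe sets, is unknown.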
